A study of Mus musculus with 18 samples.

Results

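The genes described are 38 signalling adaptors, kinases and regulators that act between Toll-like receptor 4 (Tlr4) and its transcription factors in mouse macrophages. They form a named list of the pathway, chosen with earlier results of these data known, and were read from array probe sets assigned to a single gene. Of the 38 members, 32 had such a probe set, 1 each, among 19475 genes measured. The other members (Irak4, Traf3, Chuk, Ripk1, Map2k7 and Mapk3) were not analysed here. The members fall into 5 roles: the MyD88 arm (6 of 7 measured), the TRIF arm (5 of 7), the TAK1 and IKK kinases (7 of 8), the MAP kinase cascade (8 of 10) and regulators (6 of 6).

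The cells were primary macrophages grown from bone marrow and used on day 7 of differentiation, in medium conditioned by L929 cells. The mice had a mixed background, 94% C57BL/6 and 6% 129/Ola, and were Wbp7-/- (KO) or Wbp7+/- (HET). Wbp7 (also Kmt2b) is an enzyme that methylates histone H3 at lysine 4. HET cells carry 1 mutant allele, so no group is wild type. Cells of each genotype were untreated or received lipopolysaccharide (LPS, 10 ug/ml) for 2 h or 4 h, with 3 Affymetrix arrays in each of the 6 groups. The labels do not say whether replicates came from separate mice, and p-values then measure the spread between these samples, which may be technical. The labels used here give neither the age of the mice nor the way Wbp7 was deleted.

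Tlr4 binds LPS at the cell surface and passes the signal down a pair of routes. In the MyD88 arm, the adaptors Tirap and Myd88 assemble IRAK kinases, which engage the ubiquitin ligase Traf6 and the kinase TAK1 (Map3k7), and TAK1 activates the IKK complex and the MAP kinases. In the TRIF arm, Ticam2 (TRAM) and Ticam1 (TRIF) act from endosomes and lead through Tbk1 and Ikbke to the interferon response. Several of these genes are themselves LPS targets in macrophages, and some of those encode inhibitors that limit the signal.

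Promoter sequences are shown for 3 members that rose with LPS, since the binding letters of factors downstream of Tlr4 occur in them close to the transcript start. Windows of 250 bases before to 50 after the start were taken from RefSeq for GRCm38.p6, and 33 of the 38 members had one. The κB consensus, the letters bound by NF-κB, was searched on both strands. Each sequence is the 100 bases just before an annotated start, read 5′ to 3′ on the gene's strand, with the matched letters in capitals.
Tnip1: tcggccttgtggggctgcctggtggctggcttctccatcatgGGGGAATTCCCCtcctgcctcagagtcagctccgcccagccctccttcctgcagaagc
Tank, upstream start: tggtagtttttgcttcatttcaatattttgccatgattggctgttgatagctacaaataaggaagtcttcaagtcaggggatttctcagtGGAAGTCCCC
Tank, downstream start: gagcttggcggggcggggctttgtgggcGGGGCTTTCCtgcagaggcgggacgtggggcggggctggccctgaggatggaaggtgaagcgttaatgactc
Myd88: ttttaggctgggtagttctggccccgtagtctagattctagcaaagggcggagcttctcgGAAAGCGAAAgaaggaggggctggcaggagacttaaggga

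The Tnip1 stretch lies at chr11:54962941-54963040 on the minus strand and holds 4 overlapping κB matches between positions -58 and -47 from the start. The Tank stretches lie on the plus strand at chr2:61578457-61578556 and chr2:61592997-61593096, before separate annotated starts, with 1 match each. In Myd88 the capitals mark GAAA, any 2 bases (NN) and GAAA, a form of the element bound by interferon regulatory factors, at chr9:119340019-119340118 on the minus strand, positions -40 to -31. Over all 32851 RefSeq windows, 8.46% held a κB match and 3.44% held this spaced GAAA pair on either strand. Among the members, κB matches were found in 5 of 33 genes (Irak1, Map3k7, Tank, Tnip1 and Traf3), against 9.55% of all 27025 genes with a window. The spaced GAAA pair was found in 3 of 33 (Mapk14, Myd88 and Ripk1), against 3.99%. The printed members were picked for both a rise and a match. Irak1, Map3k7 and Mapk14 hold a match and were not called higher with LPS. Peli1, Ikbke, Map3k8 and Irak2, which rose strongly, are not among the genes with a match. Only 28 of the 32 measured members had a window. Those without one are not named here, so this does not show that each of these genes was searched. A match is a string of letters and not a measured binding site.

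Expression is given as deposited, as log2 signal per probe set, and levels of different members are not set against each other. Array medians lay between 8.05 and 8.13. The mean over 10 macrophage marker genes lay between 12.70 and 13.25 on all arrays, and none of them was below the lower quartile of every array. Single macrophage markers did change. With 4 h of LPS, 4 were called higher and 1 lower in KO cells, and 2 higher and 1 lower in HET cells. Between genotypes at 4 h, 1 of 10 was called higher in KO cells (10%, against 2.42% of all genes), and differences ran from -0.86 to 1.85. Below it on every array were 5 of 8 T, B and NK cell markers, 3 of 6 mast cell and basophil, 1 of 4 erythroid and 1 of 11 neutrophil and progenitor markers, and none of 7 dendritic cell or 7 stromal markers. In HET cells at 4 h of LPS, 3 of 7 dendritic cell, 2 of 7 stromal and 2 of 11 neutrophil and progenitor markers were called higher, against 0, 1 and 0 in KO cells. So were 1 of 8 T, B and NK cell and 1 of 4 erythroid markers, against 0 and 0 in KO cells. Over all genes, 15.7% were called higher in HET cells and 6.48% in KO cells. The part of these markers in the members' changes was not tested. The mean over the dendritic cell markers at 4 h was 7.45 to 7.73 in KO cells and 7.52 to 7.95 in HET cells, and 7.23 to 7.45 and 7.20 to 7.57 in untreated KO and HET cells. Stromal marker means were 8.05 to 8.44 (KO) and 8.13 to 8.48 (HET) at 4 h. In untreated cells they were 7.60 to 8.01 and 7.73 to 7.93. Neutrophil and progenitor means were 8.33 to 8.71 (KO) and 8.32 to 8.63 (HET) at 4 h. Untreated, those were 8.11 to 8.45 and 7.74 to 8.38. The probe set for Wbp7 differed by -0.24, -0.06 and -0.09 between KO and HET cells that were untreated or treated for 2 h and 4 h, none of which passed the test. Without knowing which part of the gene was deleted, this probe set does not check the labels. Pigp, a subunit of the first enzyme of glycosylphosphatidylinositol anchor synthesis, was lower in KO cells at all 3 times (log2 difference -0.56, -0.38 and -0.50, adjusted p = 0.0147, 0.0441 and 0.0115, limma).

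At every time, the HET array of replicate 1 stood apart from the other HET arrays. The SD of gene-wise differences between arrays of a group was 0.435 to 0.531 for pairs with HET replicate 1 and 0.175 to 0.279 for other pairs. On these arrays the 19 measured cell-cycle genes were lower than on the other HET arrays, by a median of -2.91 in untreated cells, -2.83 at 2 h and -2.45 at 4 h. The mean of the list was 11.23 to 11.85 on the KO arrays, 11.08 to 11.98 on HET replicates 2 and 3 at the same times, and 9.30, 8.81 and 8.57 on HET replicate 1. Among the members, the same arrays exceeded the other HET arrays by 1.31 at 2 h and 1.16 at 4 h for Tnip2, and by 0.91 and 0.64 for Map3k8. All members were also fitted with these 3 arrays left out, and each call that this gains or loses is given below. The part of the cell-cycle genes in the results was not tested.

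LPS raised more members than it lowered in both genotypes. Each change is a difference of group means on the log2 scale, given with its standard error (SE) in limma and n = 3 arrays a group. A gene is called where its p, adjusted by Benjamini-Hochberg over all genes, is under 0.05. At 2 h, 7 of 32 members were higher and none was lower in KO cells, where 3.35% of all genes were called in either direction (2% higher and 1.35% lower). In HET cells at 2 h, 13 members were higher and 1 was lower, with 15.6% of all genes called (5.56% higher and 10% lower). At 4 h, 11 members were higher and 1 was lower in KO cells, with 15.8% of all genes called (6.48% higher and 9.28% lower). In HET cells at 4 h, 14 were higher and 6 lower, with 36.4% called (15.7% higher and 20.7% lower). With HET replicate 1 left out at all times, 8 members were higher and none lower in KO cells at 2 h (8.36% of all genes called), against 12 higher and 2 lower in HET cells (14.3%). At 4 h that fit called 16 higher and 2 lower in KO cells (27.7% of all genes) and 16 higher and 3 lower in HET cells (35.5%). The 2 h and 4 h changes share their untreated arrays. The median change over the members was 0.19 at 2 h and 0.25 at 4 h in KO cells, against 0.02 and 0.02 over all genes. It was 0.22 and 0.11 in HET cells, against 0.02 and 0.09. Quantile normalization put the 4 h HET median of the members at 0.35. The arrays measure a whole culture, so that fewer responding cells and less RNA per cell cannot be told apart.

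**Figure D1:**
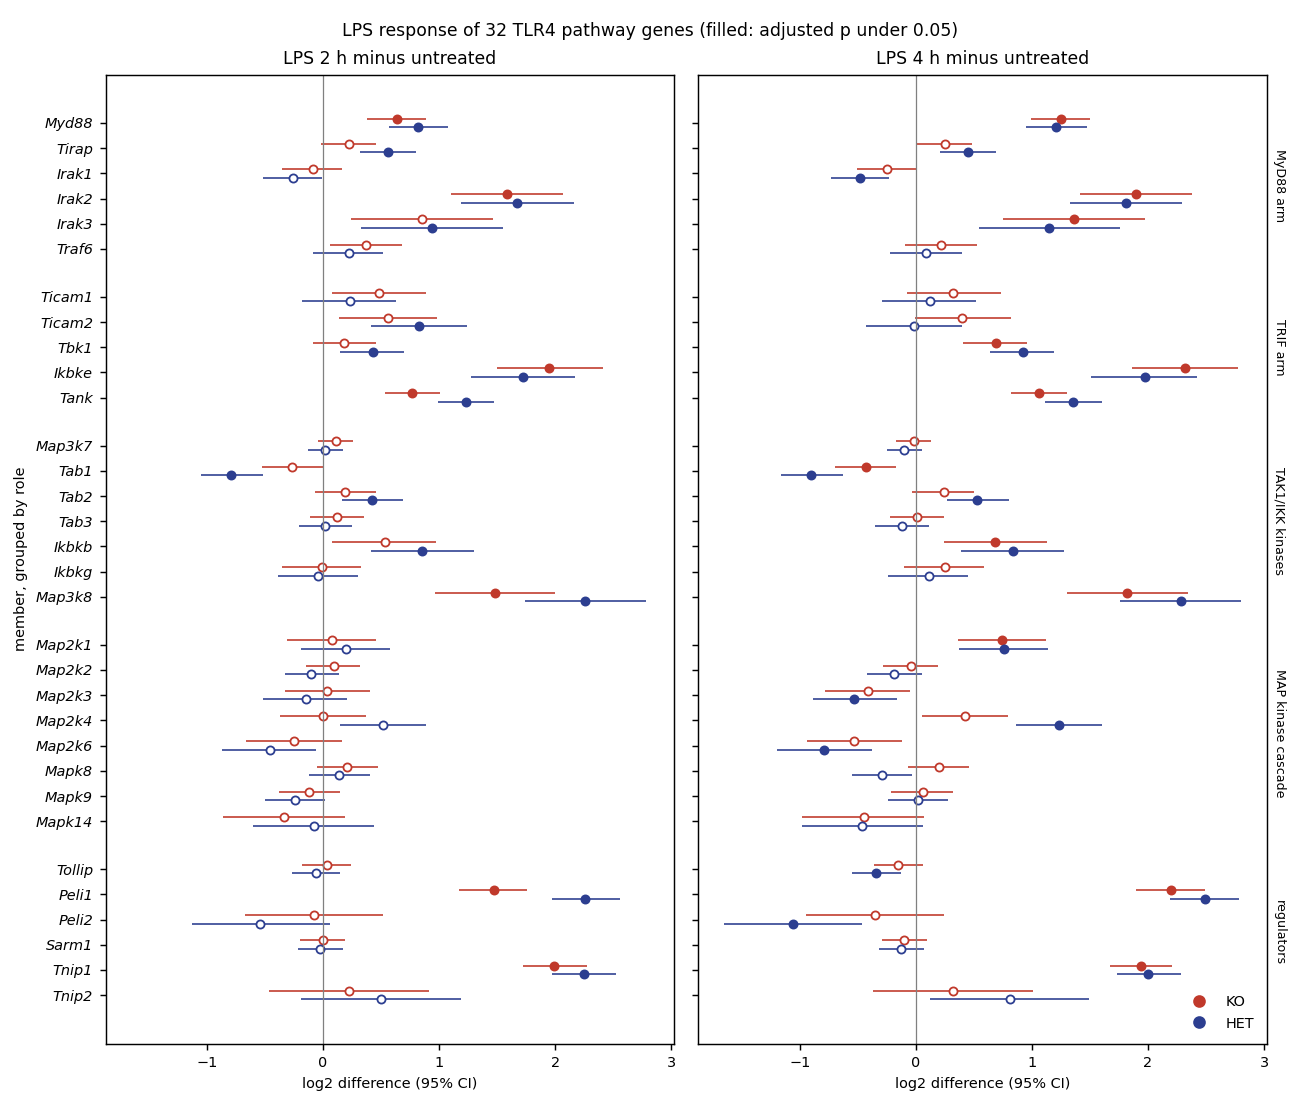
Log2 difference from untreated cells after 2 h (left) and 4 h (right) of LPS for the 32 measured members, grouped by role, in KO (red) and HET (blue) macrophages; bars are 95% confidence intervals and filled points have an adjusted p under 0.05. Tnip1, Peli1, Ikbke, Map3k8 and Irak2 stand furthest to the right in both genotypes, between 1.47 and 2.49, and Tab1 stands left of 0 in all 4 sets.

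In the MyD88 arm, Myd88 itself rose at both times. In KO cells its signal was 12.04, 12.25 and 12.20 in untreated cells, 12.72, 12.78 and 12.90 at 2 h, and 13.45, 13.35 and 13.43 at 4 h. In HET cells it was 12.46, 12.22 and 12.50 untreated, 13.50, 12.94 and 13.19 at 2 h, and 13.69, 13.51 and 13.60 at 4 h. Arrays of successive times did not overlap in either genotype. The change at 2 h was 0.64 ± 0.12 in KO cells and 0.82 ± 0.12 in HET cells (SE; adjusted p = 0.0052 and 0.000206). At 4 h it was 1.25 in KO cells and 1.21 in HET cells, both with SE 0.12. From 2 h to 4 h it rose by 0.61 in KO cells (adjusted p = 0.00695), while the 0.39 in HET cells missed the threshold (adjusted p = 0.0607, or 0.00685 with the culture as a random block and 0.0116 without HET replicate 1).

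Tirap, the sorting adaptor that brings Myd88 to the membrane, had a smaller change. Its KO arrays read 10.11, 10.30 and 10.22 untreated, 10.43, 10.29 and 10.56 at 2 h, and 10.42, 10.57 and 10.37 at 4 h. Its HET arrays read 10.46, 10.03 and 10.10 untreated, 10.91, 10.71 and 10.67 at 2 h, and 10.66, 10.59 and 10.69 at 4 h. The HET arrays with LPS lay above all untreated ones, and the KO arrays at 2 h overlapped them. The HET rise was called at 2 h (0.56 ± 0.112) and 4 h (0.45 ± 0.112, adjusted p = 0.00248 and 0.00568), and the KO changes of 0.22 and 0.25 were not (adjusted p = 0.471 and 0.172). The KO change at 4 h was called with HET replicate 1 left out at all times (adjusted p = 0.0443).

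Irak2, a kinase that sustains signalling after the first IRAKs, changed most in this arm. In KO cells it read 10.76, 10.41 and 10.79 untreated, 12.46, 11.95 and 12.29 at 2 h, and 12.67, 12.47 and 12.50 at 4 h. In HET cells it read 11.55, 10.66 and 10.37 untreated, 12.76, 12.49 and 12.35 at 2 h, and 12.60, 12.70 and 12.71 at 4 h. Untreated HET replicate 1 was the highest of the untreated arrays, and no LPS array of either genotype fell as low. The rise was 1.58 ± 0.227 in KO cells and 1.67 ± 0.227 in HET cells at 2 h (adjusted p = 0.000563 and 0.000109), and 1.90 and 1.81 at 4 h.

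Irak3 (IRAK-M), an inhibitor that holds IRAK complexes at the receptor, rose by 4 h in both genotypes. KO arrays gave 10.96, 11.60 and 11.06 untreated, 11.79, 12.50 and 11.90 at 2 h, and 12.43, 12.97 and 12.30 at 4 h. HET arrays gave 11.27, 11.08 and 11.56 untreated, 12.37, 11.73 and 12.63 at 2 h, and 12.22, 12.12 and 13.01 at 4 h. KO replicate 2 and HET replicate 3 were the highest of their group at every time. The 4 h rise was called in both genotypes (KO 1.36 ± 0.287, HET 1.15 ± 0.287, adjusted p = 0.00369 and 0.00566). At 2 h the change was 0.85 in KO cells (adjusted p = 0.164) and 0.94 in HET cells (0.0367). The HET call was lost without untreated replicate 1 or 2 or LPS replicate 1 or 3, or with HET replicate 1 left out at all times (adjusted p up to 0.157). With the culture as a random block, the 2 h change in KO cells was called too (adjusted p = 0.00681).

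The first-line kinase Irak1 and the ligase Traf6 moved little. Irak1 fell by 0.48 ± 0.118 in HET cells at 4 h (adjusted p = 0.00541), a call lost with HET replicate 1 left out at all times or with quantile normalization (adjusted p up to 0.149), and its KO change of -0.25 did not pass (adjusted p = 0.182). Traf6 ranged from 10.38 to 10.99 in KO cells and from 10.34 to 10.92 in HET cells over all times, and its largest change was 0.37 in KO cells at 2 h (adjusted p = 0.278, or 0.0417 with the culture as a random block).

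In the TRIF arm, Ikbke and the scaffold Tank rose in all 4 sets. Ticam1, the adaptor TRIF, read 9.76, 10.19 and 9.80 in untreated KO cells, 10.46, 10.35 and 10.39 at 2 h, and 10.30, 10.42 and 10.01 at 4 h. In HET cells it read 10.39, 9.63 and 10.07 untreated, 10.23, 10.40 and 10.15 at 2 h, and 9.77, 10.29 and 10.40 at 4 h. Arrays with LPS overlapped the untreated ones except for KO cells at 2 h, and no change passed (KO 0.48 and 0.32, HET 0.23 and 0.12 at 2 h and 4 h, adjusted p between 0.281 and 0.619). With HET replicate 1 left out at all times, the HET change at 4 h was 0.49 and passed (adjusted p = 0.0416).

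Ticam2, the bridging adaptor TRAM, was high at 2 h in HET cells and lower again at 4 h. Its KO arrays gave 9.28, 9.44 and 9.24 untreated, 9.92, 9.86 and 9.87 at 2 h, and 9.86, 9.72 and 9.60 at 4 h. Its HET arrays gave 9.35, 9.22 and 9.67 untreated, 10.11, 10.21 and 10.41 at 2 h, and 8.81, 9.51 and 9.88 at 4 h. The 3 HET arrays at 2 h lay above all other HET arrays, and HET replicate 1 at 4 h was the lowest of all. The HET change was 0.83 ± 0.195 at 2 h (adjusted p = 0.00805) and -0.02 at 4 h. The drop between the times was -0.85 (limma adjusted p = 0.0136, but 0.0604 without HET replicate 3 at 2 h and 0.248 in the comparison's arrays alone). With HET replicate 1 left out at all times, the HET changes were 0.86 and 0.25 (limma adjusted p = 0.00157 and 0.224). The drop was then -0.62 (0.015). In KO cells it was 0.56 and 0.40 (adjusted p = 0.189 and 0.202). The 2 h value in KO cells passed with the culture as a random block and with HET replicate 1 left out (adjusted p = 0.0285 and 0.0122), and the 4 h value with HET replicate 1 left out (0.0261).

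Ikbke, the inducible partner of Tbk1, had the largest rise of the arm. KO arrays read 9.96, 10.62 and 10.11 untreated, 12.17, 12.09 and 12.29 at 2 h, and 12.53, 12.59 and 12.52 at 4 h. HET arrays read 11.38, 10.38 and 11.06 untreated, 12.96, 12.47 and 12.54 at 2 h, and 13.04, 12.75 and 12.92 at 4 h. Every LPS array lay above every untreated one. The change was 1.95 ± 0.213 in KO cells and 1.72 ± 0.213 in HET cells at 2 h (adjusted p = 3.82e-05 and 4.77e-05), and 2.32 and 1.97 at 4 h.

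Tank, a scaffold that holds Tbk1 and Ikbke, rose in all 4 sets, by 0.77 in KO cells and 1.23 in HET cells at 2 h, and by 1.06 and 1.35 at 4 h (SE 0.114). Its κB matches are shown above. Tbk1 rose by 0.69 in KO cells and 0.92 in HET cells at 4 h (SE 0.129, adjusted p = 0.00147 and 5.32e-05). At 2 h its change was 0.18 in KO cells (adjusted p = 0.666) and 0.43 in HET cells (0.034). The HET call at 2 h was lost without untreated replicate 1 or 3 or LPS replicate 1 or 3 (adjusted p up to 0.161), and with HET replicate 1 left out at all times (0.37, adjusted p = 0.0504).

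The arms can be set side by side. The MyD88 arm changed by a median of 0.50 in KO cells and 0.69 in HET cells at 2 h, with 2 and 4 of 6 members higher. The TRIF arm changed by 0.56 in KO cells and 0.83 in HET cells at 2 h, with 2 and 4 of 5 higher. At 4 h the MyD88 arm had medians of 0.75 and 0.80 (3 higher in KO cells, 4 higher and 1 lower in HET cells), and the TRIF arm 0.69 and 0.92 (3 higher in each). With HET replicate 1 left out at all times, the HET counts at 2 h were 3 of 6 for the MyD88 arm (median 0.67) and 3 of 5 for the TRIF arm (median 0.86). At 4 h they were 4 of 6 (median 0.89) and 4 of 5 (median 0.78), so that the order of the HET medians turned round. The same fit called 4 of 6 and 4 of 5 in KO cells at 4 h. Of all genes, the whole fit called 2% higher in KO cells and 5.56% in HET cells at 2 h. At 4 h these shares were 6.48% and 15.7%. The fit without HET replicate 1 called 14.3% of all genes in either direction in HET cells at 2 h. At 4 h it called 35.5% in HET cells and 27.7% in KO cells. Medians over all genes in the whole fit lay between 0.02 and 0.09. The difference between the arms was not tested.

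**Figure D2:**
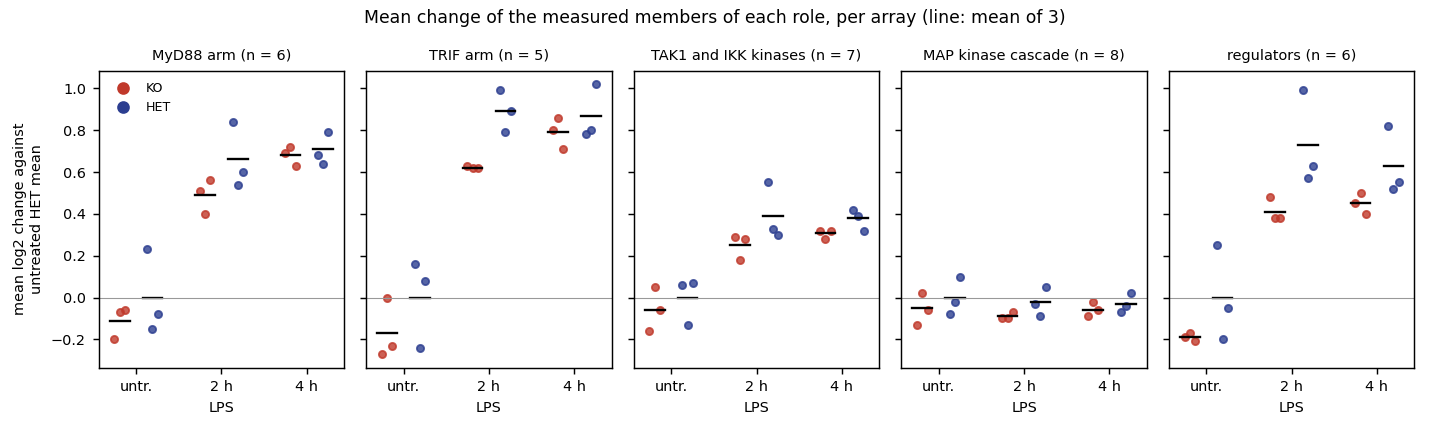
Mean log2 change of the measured members of each role against their mean in untreated HET cells, per array, in KO (red) and HET (blue) macrophages untreated and after 2 h and 4 h of LPS; lines are means of 3 arrays. At 2 h the TRIF arm averaged 0.62 in KO cells and 0.89 in HET cells and the MyD88 arm 0.49 and 0.66. The mean of the MAP kinase cascade stayed between -0.13 and 0.10 on every array, but it averages changes of opposite sign. In HET cells at 4 h its members changed by -0.79 to 1.23, with 2 called higher and 2 lower.

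Of the TAK1 and IKK kinases, Map3k8 responded most. Map3k8 (Tpl2) is the kinase that links IKK to the ERK branch. Its KO arrays gave 9.40, 9.83 and 9.58 untreated, 11.19, 10.85 and 11.21 at 2 h, and 11.64, 11.24 and 11.38 at 4 h. Its HET arrays gave 9.87, 9.54 and 10.07 untreated, 12.70, 11.80 and 11.76 at 2 h, and 12.54, 12.05 and 11.74 at 4 h. The LPS arrays lay above the untreated ones in both genotypes, and HET replicate 1 was the highest at 2 h and 4 h. The rise was 1.48 ± 0.244 in KO cells and 2.26 ± 0.244 in HET cells at 2 h (adjusted p = 0.0018 and 1.49e-05), and 1.82 and 2.28 at 4 h.

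Tab1, an activating subunit of TAK1, fell. KO arrays gave 9.04, 9.24 and 9.24 untreated, 8.91, 8.77 and 9.04 at 2 h, and 8.64, 8.72 and 8.86 at 4 h. HET arrays gave 9.32, 9.24 and 9.28 untreated, 8.32, 8.60 and 8.55 at 2 h, and 8.06, 8.55 and 8.54 at 4 h. All HET arrays with LPS lay below the untreated ones, and in KO cells this held at 4 h. Tab1 fell by 0.79 ± 0.125 at 2 h and 0.90 ± 0.125 at 4 h in HET cells (adjusted p = 0.000435 and 5.33e-05) and by 0.43 ± 0.125 at 4 h in KO cells (adjusted p = 0.027). The KO call was lost with quantile normalization (adjusted p = 0.163) and without untreated replicate 2 or 3 or LPS replicate 1 or 2 (adjusted p up to 0.119).

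Ikbkb, the catalytic IKK subunit of the canonical NF-κB route, rose by 0.68 in KO cells and 0.84 in HET cells at 4 h (SE 0.209, adjusted p = 0.0368 and 0.00564), and by 0.85 in HET cells at 2 h (adjusted p = 0.0106). The KO call at 4 h held in 1 of 6 fits with an array left out (adjusted p up to 0.17), and the HET call at 2 h was lost without LPS replicate 1 (adjusted p = 0.0662). Tab2, an adaptor that binds ubiquitin chains for TAK1, rose in HET cells by 0.42 at 2 h and 0.53 at 4 h (adjusted p = 0.0296 and 0.00363), against 0.19 and 0.24 in KO cells (adjusted p = 0.629 and 0.246). The 2 h call was lost without HET LPS replicate 1 or untreated replicate 2 or 3 (adjusted p up to 0.166), and the KO change at 4 h passed with HET replicate 1 left out at all times (0.046). TAK1 itself (Map3k7) stayed between 10.80 and 11.01 on KO arrays and between 10.72 and 10.96 on HET arrays, and neither it nor Tab3 or Ikbkg was called in any comparison.

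In the MAP kinase cascade, no member of the 8 measured was called at 2 h in either genotype. Of all genes, 3.35% were called in KO cells and 15.6% in HET cells. Limma's unadjusted p was under 0.05 for 0 in KO cells (against 12% of all genes) and 2 in HET cells (25%, against 26.3%). At 4 h, 1 was higher in KO cells (12.5%, below the 15.8% of all genes), and 2 were higher and 2 lower in HET cells (50%, against 36.4%). Map2k1 (MEK1), which activates ERK, rose by 0.74 in KO cells and 0.76 in HET cells (SE 0.181, adjusted p = 0.00987 and 0.00416). The KO call was lost without untreated replicate 1 (adjusted p = 0.0516).

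Map2k4 (MKK4), an activator of JNK, rose in HET cells at 4 h. Its KO arrays gave 10.70, 10.90 and 10.98 untreated, 10.88, 10.88 and 10.84 at 2 h, and 11.32, 11.29 and 11.24 at 4 h. Its HET arrays gave 10.97, 10.72 and 10.97 untreated, 11.77, 11.10 and 11.35 at 2 h, and 12.55, 11.81 and 12 at 4 h. At 4 h the arrays of both genotypes lay above their untreated ones, and at 2 h this held in HET cells. The 4 h change was 1.23 ± 0.174 in HET cells (adjusted p = 5.51e-05), and the 0.42 ± 0.174 in KO cells missed the threshold (adjusted p = 0.128). With the culture as a random block, the KO change at 4 h was called (adjusted p = 0.0176), as was the HET change of 0.52 at 2 h (0.00462, against 0.0558 without the block). Both also passed with HET replicate 1 left out at all times (0.00461 in KO cells, and 0.38 with 0.0464 in HET cells).

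For Mapk8 (JNK1) no change from untreated cells was called. It read 9.58, 9.90 and 9.79 in untreated KO cells, 9.87, 10.03 and 9.99 at 2 h, and 9.86, 10.06 and 9.93 at 4 h. In HET cells it read 9.65, 9.69 and 9.79 untreated, 9.85, 9.71 and 9.97 at 2 h, and 9.13, 9.46 and 9.67 at 4 h. The HET arrays at 4 h lay below those at 2 h, a change of -0.43 (adjusted p = 0.0437) that was called in 5 of 11 alternative fits and was -0.28 with HET replicate 1 left out at all times (0.179). Against untreated cells the 4 h change was 0.20 in KO cells (adjusted p = 0.35) and -0.29 in HET cells (0.0758, or 0.0154 with the culture as a random block).

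Map2k3 (MKK3), an activator of p38, gave 11.95, 11.87 and 12.08 in untreated KO cells, 12.08, 11.71 and 12.21 at 2 h, and 11.58, 11.36 and 11.73 at 4 h. HET arrays gave 12.30, 11.99 and 11.86 untreated, 12.03, 12.05 and 11.62 at 2 h, and 11.64, 11.73 and 11.20 at 4 h. Its 4 h arrays lay below its untreated ones in both genotypes. It fell by 0.53 ± 0.171 in HET cells at 4 h (adjusted p = 0.0256, but up to 0.106 without untreated replicate 1 or LPS replicate 3, and 0.0883 without HET replicate 1 at all times), beside -0.41 in KO cells (0.13, or 0.0135 with the culture as a random block).

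Map2k6 (MKK6), like Map2k3 an activator of p38, fell in HET cells at 4 h. KO arrays gave 7.89, 7.88 and 7.60 untreated, 7.65, 7.52 and 7.43 at 2 h, and 7.24, 7.29 and 7.24 at 4 h. HET arrays gave 7.43, 8.23 and 8.34 untreated, 7.18, 7.65 and 7.77 at 2 h, and 7.19, 7.21 and 7.24 at 4 h. Arrays of both genotypes came together at 4 h below all untreated arrays, and untreated HET replicate 1 was the lowest untreated one. The 4 h values lie near the lower quartiles of the arrays (6.71 to 6.99), where differences between genotypes are hard to see. The 4 h change was -0.79 ± 0.192 in HET cells (adjusted p = 0.00485) and -0.53 ± 0.192 in KO cells (0.0792, or 0.0114 with the culture as a random block). At 2 h the HET change of -0.46 was called with that block (adjusted p = 0.0247, against 0.13). The KO change at 4 h (0.000404), the HET change at 2 h (-0.57, 0.00226) and that between 2 h and 4 h in HET cells (-0.49, 0.0073) were called with HET replicate 1 left out at all times.

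Map2k2, Mapk9 and Mapk14, which are MEK2, JNK2 and p38α, were not called in these comparisons, but with the culture as a random block Mapk14 was lower at 4 h by -0.45 in KO cells and -0.46 in HET cells (adjusted p = 0.0498 and 0.0255) and Mapk9 at 2 h in HET cells by -0.24 (0.0481).

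Among the regulators, the ligase Peli1 and the A20-binding inhibitor Tnip1 had the largest rises. Peli1 (Pellino 1), an E3 ubiquitin ligase of IRAK and TRIF complexes, read 10.92, 10.84 and 10.88 in untreated KO cells, 12.42, 12.41 and 12.21 at 2 h, and 13.12, 13.05 and 13.06 at 4 h. In HET cells it read 11.27, 10.75 and 10.75 untreated, 13.45, 12.97 and 13.14 at 2 h, and 13.56, 13.35 and 13.32 at 4 h. KO arrays at 2 h lay between the untreated and the 4 h arrays, and HET arrays at 2 h overlapped those at 4 h. The change was 1.47 ± 0.139 in KO cells and 2.26 ± 0.139 in HET cells at 2 h (adjusted p = 9.03e-06 and 3.63e-08), and 2.20 and 2.49 at 4 h. From 2 h to 4 h Peli1 rose by 0.73 in KO cells (adjusted p = 0.00572), beside 0.22 in HET cells (0.418).

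Tnip1, whose promoter match is printed above, had risen by 2 h. KO arrays gave 9.59, 10.00 and 9.68 untreated, 11.78, 11.70 and 11.78 at 2 h, and 11.66, 11.78 and 11.65 at 4 h. HET arrays gave 10.04, 9.71 and 9.90 untreated, 12.34, 11.99 and 12.06 at 2 h, and 12.11, 11.74 and 11.81 at 4 h. LPS arrays stood well clear of untreated ones, and those of 2 h and 4 h overlapped. The change was 1.99 ± 0.128 in KO cells and 2.25 ± 0.128 in HET cells at 2 h (adjusted p = 1.09e-07 and 1.53e-08), and 1.94 and 2.00 at 4 h.

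Peli2, another Pellino ligase, fell in HET cells at 4 h. KO arrays gave 8.63, 8.43 and 8.02 untreated, 8.45, 8.40 and 8.0 at 2 h, and 8.10, 8.13 and 7.79 at 4 h. HET arrays gave 9.99, 8.75 and 9.07 untreated, 9.02, 8.40 and 8.78 at 2 h, and 8.59, 7.80 and 8.25 at 4 h. Untreated HET replicate 1 was the highest array, and the HET arrays at 4 h lay below the untreated ones. Peli2 fell by 1.06 ± 0.279 in HET cells at 4 h (adjusted p = 0.00843, and -0.88 with 0.00747 without HET replicate 1), and the -0.35 in KO cells did not pass (0.468). With the culture as a random block its 2 h change of -0.54 in HET cells was called as well (adjusted p = 0.036, against 0.247).

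Tollip, an adaptor that restrains IRAK signalling, fell by 0.34 ± 0.0983 in HET cells at 4 h (adjusted p = 0.0137, but up to 0.0709 without LPS replicate 1 or untreated replicate 3, and 0.0751 without HET replicate 1 at all times), beside -0.15 in KO cells (0.368). Tnip2, another A20-binding protein, changed by 0.32 in KO cells and 0.81 in HET cells at 4 h (adjusted p = 0.581 and 0.0629). Its HET arrays at 4 h read 11.20, 10.23 and 9.84, the first being replicate 1. The HET change was called with the culture as a random block (adjusted p = 0.00529) and, at 0.55, with HET replicate 1 left out at all times (0.0047), which also called the KO change (0.0404). Sarm1, an inhibitor of TRIF, was not called in any comparison and lay between 7.06 and 7.37 on KO arrays and 6.95 and 7.31 on HET arrays. That is close to the lower quartiles of the arrays (6.71 to 6.99), so the lack of a call says little about Sarm1.

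**Figure D3:**
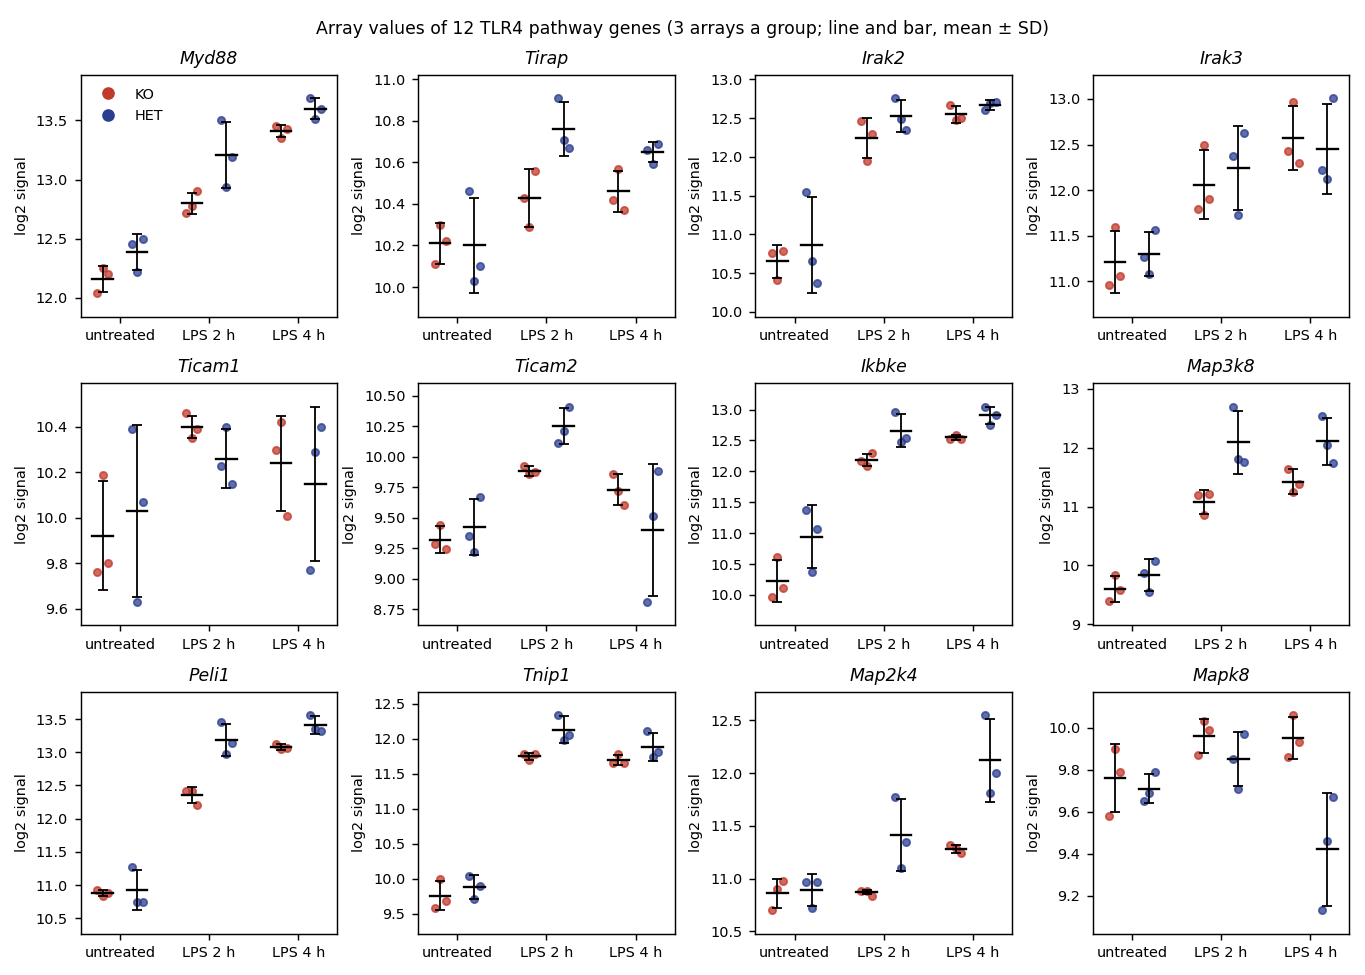
Log2 signal of 12 members on each array, in KO (red) and HET (blue) macrophages untreated and after 2 h and 4 h of LPS; points are arrays, lines and bars are the mean ± SD of 3. Peli1 at 2 h reads 12.21 to 12.42 in KO cells and 12.97 to 13.45 in HET cells, and Map2k4 at 4 h reads 11.24 to 11.32 and 11.81 to 12.55.

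Between 2 h and 4 h few members changed. In KO cells 3 of 32 were higher and none was lower, where 4.37% of all genes were called (2.69% higher and 1.69% lower), and these were Myd88, Peli1 and Tbk1. Tbk1 rose by 0.50 in KO cells (adjusted p = 0.037), and each of the 6 fits that left out an array of the comparison lost that call (adjusted p up to 0.177). In HET cells 2 were higher (Tbk1 by 0.49 and Map2k4 by 0.71) and 2 lower (Ticam2 and Mapk8), where 8.18% of all genes were called (3.8% higher and 4.39% lower). Both HET rises were lost without LPS 4 h replicate 1 or LPS 2 h replicate 2 or 3 (adjusted p up to 0.158). With the culture as a random block the counts were 7 in KO cells and 9 in HET cells, while those over all genes were 1898 and 3194, against 852 and 1594 without the block. Map2k1 passed in both genotypes with that block, at 0.66 in KO cells and 0.56 in HET cells (adjusted p = 0.00253 and 0.00546, against 0.0501 and 0.073 without it), as did Map2k3, at -0.45 and -0.38 (0.0205 and 0.0342). Tank and Map2k4 also passed in KO cells (0.03 and 0.0406), and Myd88, Mapk9 and Tollip in HET cells (0.00685, 0.0468 and 0.0259). Map2k1 passed in both genotypes (0.66 and 0.62, adjusted p = 0.00165 and 0.00878) and Map2k4 in KO cells (0.0115) with HET replicate 1 left out at all times.

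Fewer members were called between genotypes than with LPS. In untreated cells no member was called between KO and HET (0 of 32 in limma), where 0.416% of all genes were (0.0565% higher and 0.359% lower). At an unadjusted p under 0.05 (4.44% of all genes), 2 were lower, Ikbke by -0.71 ± 0.213 (adjusted p = 0.355) and Peli2 by -0.91 ± 0.279 (0.389). The highest untreated values of both were on HET replicate 1, and without that replicate at all times the differences were -0.49 and -0.55. Ikbke was called without untreated HET replicate 2 (-0.99, adjusted p = 0.0407), and Map2k6 without HET replicate 1 (-0.50, adjusted p = 0.0368). The median over the members was -0.07, against -0.02 over all genes.

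At 2 h of LPS, 2 of 32 members were lower in KO cells and none was higher, where 2.76% of all genes were called (1.22% higher and 1.54% lower). The members' median was -0.21, against 0.00 over all genes, and -0.24 to -0.17 under the other scalings. It was -0.14 with HET replicate 1 left out at all times, against 0.03 over all genes. At an unadjusted p under 0.05, 10 members were lower and 2 higher (37.5%), as were 1171 and 1749 of all genes (15%). The arms had medians of -0.24 (MyD88) and -0.33 (TRIF), with no member of either called, and of -0.15 and -0.25 without HET replicate 1.

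Peli1 at 2 h was the firmer of the pair. The KO arrays (12.42, 12.41 and 12.21) lay below the HET arrays (13.45, 12.97 and 13.14), a difference of -0.84 ± 0.139 (adjusted p = 0.00588). The call was kept in each of 6 fits with an array left out (adjusted p up to 0.0302) and without HET replicate 1 at all times (-0.71, adjusted p = 0.000575), and was lost in a fit of the arrays of the comparison alone (adjusted p = 0.14).

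Map3k8 at 2 h gave 11.19, 10.85 and 11.21 on KO arrays, below the 12.70, 11.80 and 11.76 on HET arrays. The difference was -1.0 ± 0.244 (adjusted p = 0.0399). With HET replicate 1 left out at all times it was -0.70 (adjusted p = 0.0654). A fit of the comparison's arrays alone (0.224) and leaving out HET replicate 1 or any KO array at 2 h also lost the call (adjusted p up to 0.194). At 4 h the difference was -0.69 (adjusted p = 0.143).

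Other members had KO arrays wholly below HET arrays at 2 h, or wholly above them, but fell short of the threshold. The share of all genes whose arrays separate in this way was not counted, so these members are described singly. Those in the next sentence had KO arrays wholly below HET arrays. Myd88 differed by -0.41 ± 0.12 (adjusted p = 0.0835, and 0.0135 without HET replicate 2 at 2 h), Tirap by -0.33, Tnip1 by -0.38 and Map2k4 by -0.54 (adjusted p = 0.143, 0.143 and 0.122). Map2k4 was called without HET replicate 2 at 2 h (adjusted p = 0.0384). In the TRIF arm the same held for Ticam2 (-0.36), Tbk1 (-0.33), Ikbke (-0.47) and Tank (-0.30), with adjusted p between 0.204 and 0.423. Tab1, the gene that fell with LPS, was higher in KO cells by 0.41 ± 0.125 (adjusted p = 0.0995), and was called with array weights (0.0269) and with replicate number as a block (0.0387). Its KO arrays lay above its HET arrays, as did those of Map2k2 (0.25), Tollip (0.13) and Tab3 (0.09), with adjusted p between 0.293 and 0.78.

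At 4 h of LPS, 1 member was higher and 1 lower in KO cells, where 2.42% of all genes were called (1.32% higher and 1.1% lower). The members' median was 0.01, against -0.06 over all genes, and it was -0.06 after quantile normalization. Both called members belong to the JNK branch.

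Map2k4 was lower in KO cells at 4 h. Its KO arrays (11.32, 11.29 and 11.24) lay below its HET arrays (12.55, 11.81 and 12), a difference of -0.84 ± 0.174 (adjusted p = 0.0192). With HET replicate 1 left out at all times the difference was -0.62 and still called (adjusted p = 0.00581), but leaving out HET replicate 1 or KO replicate 2 or 3 at 4 h alone lost the call (adjusted p up to 0.0859), as did a fit of the comparison's arrays alone (0.136).

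Mapk8, the kinase that MKK4 phosphorylates, was higher in KO cells at 4 h. The KO arrays (9.86, 10.06 and 9.93) lay above the HET arrays (9.13, 9.46 and 9.67), a difference of 0.53 ± 0.123 (adjusted p = 0.0344). The call was lost with quantile normalization (0.37, adjusted p = 0.0806), in the comparison's arrays alone (0.191), without HET replicate 1 at all times (0.39, adjusted p = 0.0769), and without HET replicate 1 or any KO array at 4 h (up to 0.18). The lowest HET array was replicate 1.

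**Figure D4:**
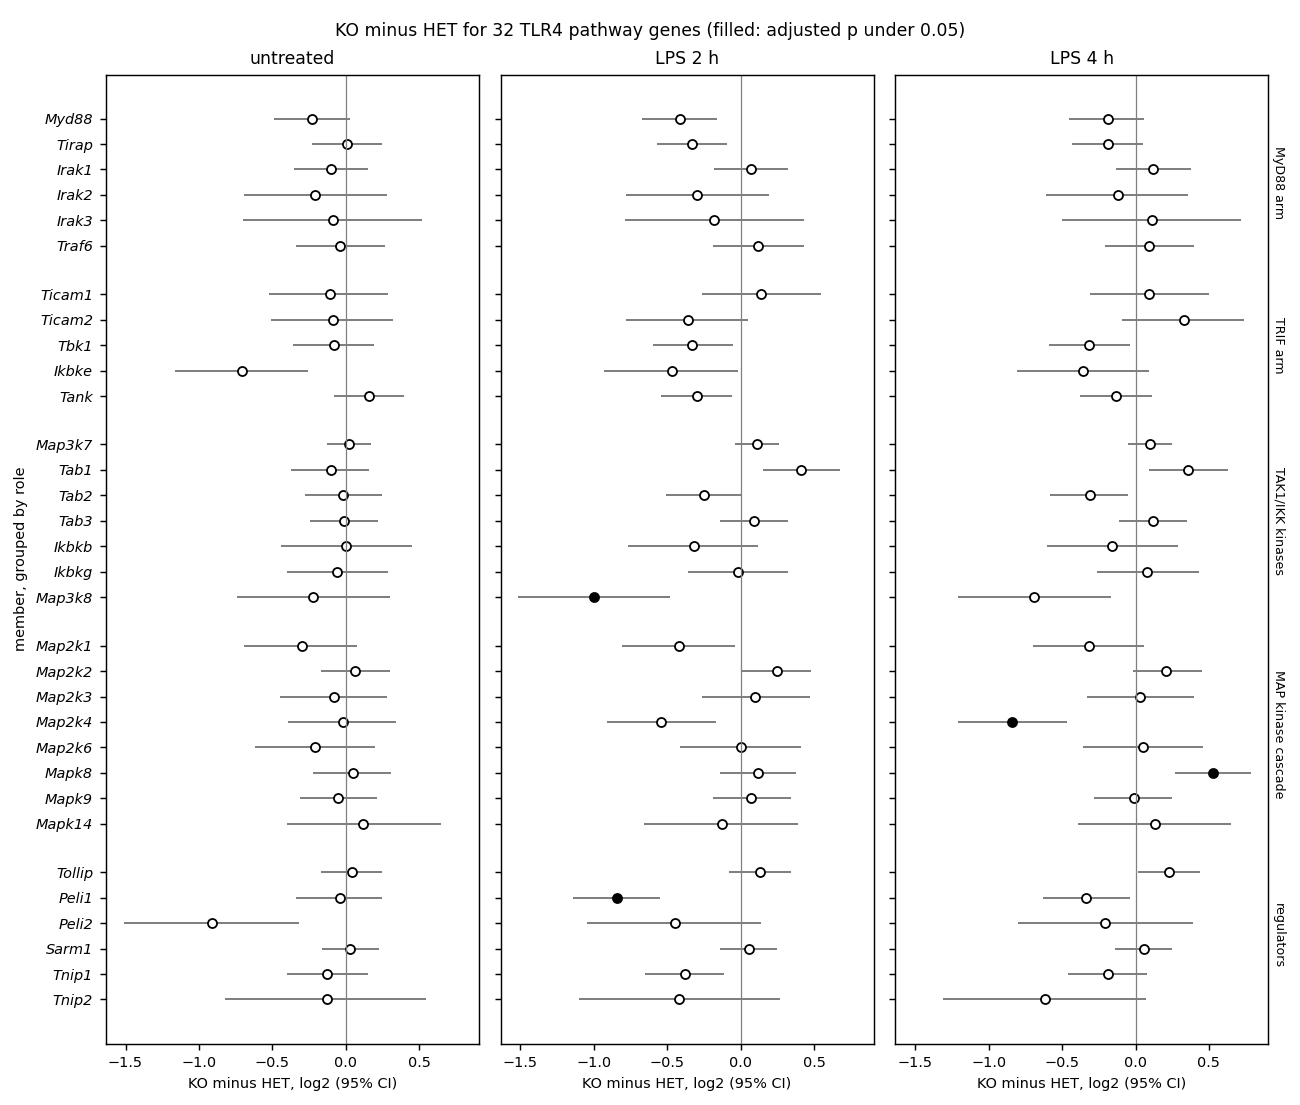
KO minus HET log2 difference of the 32 measured members, grouped by role, in untreated cells and after 2 h and 4 h of LPS; bars are 95% confidence intervals and filled points have an adjusted p under 0.05. Filled points are Map3k8 (-1.0) and Peli1 (-0.84) at 2 h and Map2k4 (-0.84) and Mapk8 (0.53) at 4 h, and none is filled in untreated cells.

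Whether the LPS response itself differed between genotypes was tested with the interaction term of the same limma fit. No member was called at 2 h, where 0% of all genes were (0 of 19475 in limma), and none at 4 h, where 0.0513% were (0.0103% higher and 0.0411% lower). At an unadjusted p under 0.05, 1 member was higher and 4 were lower at 2 h (15.6%, against 5.64% of all genes). At 4 h, 2 were higher and 1 lower (9.38%, against 7.2%), a share near that of all genes. For Peli1 the 2 h response in KO cells minus that in HET cells was -0.80 ± 0.197 (adjusted p = 0.446), and for Map2k4 the 4 h value was -0.81 ± 0.246 (0.444).

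Arrays of the same replicate number and genotype deviated together and were treated as 1 culture in the block fits. With the culture as a random block, Peli1 was called for the 2 h response (adjusted p = 0.0307) and Map2k4 for the 4 h response (0.0492), and with the culture as a fixed block the values were 0.0222 and 0.0354. Without HET replicate 1 at all times and without a block, Peli1 had a difference of -0.84 (adjusted p = 0.0532) and Map2k4 -0.64 (0.13). The corresponding terms for Map3k8 at 2 h (-0.78, adjusted p = 0.842) and Mapk8 at 4 h (0.49, adjusted p = 0.541) were not called without the block or with it.

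The rest of the pathway was read from a list of 75 further genes, 68 of them measured. With LPS, 18 rose and 3 fell in KO cells at 2 h (30.9%, against 3.35% of all genes), and 26 rose and 12 fell in HET cells (55.9%, against 15.6%). At 4 h, 26 rose and 7 fell in KO cells (48.5%, against 15.8%), and 29 rose and 12 fell in HET cells (60.3%, against 36.4%). Tlr4 itself fell by 1.12 in KO cells and fell by 1.20 in HET cells at 2 h (SE 0.263), and its co-receptor Cd14 rose by 0.97 in KO cells and 1.12 in HET cells (SE 0.167). Traf1, an adaptor of TNF receptors, and Tnfaip3, the deubiquitinase A20 to which Tnip1 binds, rose by 3.17 and 3.19 in KO cells and by 3.58 and 3.66 in HET cells at 2 h.

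Between genotypes none of these 68 genes was called in untreated cells in limma, where 0.416% of all genes were. At an unadjusted p under 0.05 there were 5 (7.35%, against 4.44% of all genes). At 2 h, 1 was higher in KO cells and 4 were lower (7.35%, against 2.76% of all genes). Fos, an AP-1 subunit, was higher by 1.42 ± 0.262 (adjusted p = 0.0116). Mapk11 (p38β) was lower by -0.76 ± 0.147 (adjusted p = 0.0146), the NF-κB subunit Rel by -0.37, and Azi2, a scaffold of Tbk1, by -0.61 (adjusted p = 0.0268 and 0.0372). At 4 h the share called was 2.94%, against 2.42% of all genes, with 1 higher (Inpp5d, the lipid phosphatase SHIP1, by 0.65, adjusted p = 0.0404) and 1 lower (Mapk11 by -0.90 ± 0.147, adjusted p = 0.00496). Mapk11 read 8.30, 8.15 and 8.33 in KO cells and 9.33, 9.04 and 9.14 in HET cells at 4 h, with no overlap.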

How the data were processed

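RNA of 6 groups, 3 samples each, was hybridised to 18 Affymetrix arrays. The authors deposited log2 values for probe sets (RMA, Partek 6.5, per the submitters' processing notes), and no further scaling was applied. No source used here states the genome build behind the probe sets. Of 25344 probe sets, 21137 had 1 gene symbol in the platform's annotation, 1530 had several and 2677 had none listed, and the first kind gave 19475 genes. For the 915 genes with several such probe sets, the one with the highest mean was used. No member had more than 1. Arrays have no read depth. Precision is limited by their number.

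The main test was limma (3.58.1, R 4.3.3), with a mean per group over all genes and arrays (12 residual degrees of freedom, prior degrees of freedom 3.17, prior SD 0.144) and p-values adjusted over all genes. The code was tested on simulated data. Intervals are at 95%.

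Deviations from group means were correlated across genes. Pairs of arrays that share number and genotype had r from 0.32 to 0.796 (18 of 18 over 0.1), while 6 of 27 pairs that share only the number were over 0.1. Each number was therefore treated as 1 culture of its genotype in the block fits. The labels do not state this. Within-culture correlation was 0.398 (duplicateCorrelation).

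The members, the further lists and the alternatives were chosen with earlier results of these data known. Array values are printed for the 4 adaptors, for members called between genotypes, and for the 6 highest and 4 lowest LPS changes among called members; the arrays of Tnip2 and Mapk11, and Tlr4 and Cd14 among the further genes, were chosen after their values were seen. Plots used matplotlib 3.10.9 in Python 3.11.15.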

Additional observations from a re-analysis of the deposited data

Results flagged for a closer look

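For Mapk8, the changes at 4 h of LPS had opposite signs in the genotypes, and this is why it is singled out. Neither change was called, and the KO arrays at 4 h overlapped the untreated ones. Genes outside the members were not searched for this pattern. Against the untreated array of the same number, every KO array was higher (0.29, 0.16 and 0.14) and every HET array was lower (-0.52, -0.23 and -0.13). The mean changes were 0.20 in KO cells and -0.29 in HET cells, a difference of 0.49 ± 0.174 (SE). Its interaction term was not called by limma (adjusted p = 0.541). With HET replicate 1 left out at all times, the HET change was -0.18 (limma adjusted p = 0.284) and the interaction term 0.37 (0.51).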

How the results depend on the processing

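No called value changed sign under any alternative run. Over single members, comparisons and alternatives (each array left out included), 6026 values kept their side of the threshold, 132 gained a call and 92 lost one. The counts of called members moved by over 1.5 times as follows. The number of all genes called moves with the fit too. Where it is not set beside a count, that count describes the fit and is no result about the members. For KO against HET, fits of the arrays of the comparison alone gave 0 members at 2 h and 0 at 4 h (2 each in the whole fit), and quantile normalization gave 1 at 4 h. Leaving out HET replicate 1 at all 3 times gave 1 in untreated cells, 1 at 2 h and 1 at 4 h. That fit called 0.606%, 2.14% and 4.52% of all genes, against 0.416%, 2.76% and 2.42% in the whole fit. For the 2 h LPS response in KO cells (7), array quality weights gave 12, the culture as a fixed replicate block 11 and the comparison's arrays alone 11. In HET cells (14), the comparison's arrays alone gave 9. For 4 h against 2 h in KO cells (3), weights gave 8, the random and fixed replicate block 7 and 8, and the comparison's arrays alone 6. Leaving out HET replicate 1 gave 5, where 12.4% of all genes were called, against 4.37% in the whole fit. In HET cells (4), the random and fixed block gave 9 and 11 and the comparison's arrays alone 0. For the difference of the response (0), either form of the block gave 1 at 2 h and 1 at 4 h. Leaving out each array in turn gave, between genotypes, 0 to 1 members in untreated cells, 1 to 4 at 2 h and 0 to 2 at 4 h. Over all genes those fits called 25 to 58, 147 to 960 and 101 to 665, against 81, 537 and 472 in the whole fit. For the 2 h response they called 7 members in each case in KO cells (412 to 512 of all genes). In HET cells they called 10 to 15 (1900 to 3123). The 4 h response gave 10 to 11 (2026 to 2667) in KO cells and 19 to 22 (4931 to 7406) in HET cells. For 4 h against 2 h the counts were 2 in each case in KO cells (441 to 800) and 0 to 5 in HET cells (795 to 2575). Calls that the random block changed are given beside each result, and it changed none between genotypes. The fixed block added Ikbkb at 2 h, Ticam2 and Peli2 at 4 h and Irak3 between the times in KO cells, and Tnip2 at 2 h and Mapk14 and Peli2 between the times in HET cells. The cause of these moves was not tested, except that fits of a comparison's arrays alone, or with an array left out, rest on fewer arrays.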
